A study of Mus musculus with 6 samples.

Results

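The Ifi200 genes, also called HIN-200 or PYHIN genes, form a cluster on mouse chromosome 1 and were followed here in skin. Probe sets were taken by their annotated gene symbol, which had to be Ifi202b, Ifi203, Ifi204, Ifi205, Mnda, Mndal or Aim2. Of the 7 genes, 6 had a probe set and 5 had one of their own, among 18193 genes with such a probe set on the array. They were read by 12 of its 45101 probe sets, 6 that carried 1 of these symbols alone and 6 that also carried another symbol. Ifi203 had 4 probe sets, Mndal 3, Ifi202b, Ifi204 and Ifi205 2 each and Aim2 1, with the shared ones counted under each gene. Both Ifi205 probe sets were shared, and no probe set carried the symbol Mnda, which the RefSeq gene table lists as an older name of Ifi211.

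Total RNA was extracted with TRIzol, labelled with biotin and hybridised to 1 single-channel Affymetrix array per sample. Skin from 3 samples labelled as a knock-in, with the genotype code KA and the source KAB6, was set against skin from 3 samples labelled WT, all on a C57BL/6 background. Which gene was altered is not stated in the labels, which also give no age, sex, body site or treatment. Nothing in them states whether each sample is a different animal, so the errors and p-values below measure only the spread between these arrays. Values are MAS5 signal intensities as deposited, on a linear scale. A difference is the mean log2(signal + 16) of knock-in less that of wild-type, with a standard error from limma fitted to all 6 arrays, and the offset of 16 makes the differences of dim probe sets too small. The 7 genes were chosen with their values in this comparison already known, so their values are a description and carry no test.

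Xist, the RNA of the inactive X chromosome, had signals of 3743, 4005 and 3442 in the knock-in samples, against 28.9, 32.5 and 27.8 in the wild-type samples. The Y-linked gene Eif2s3y averaged 5.04 ± 0.544 in knock-in and 687 ± 42.6 in wild-type (SD, n = 3 each). Sex and genotype therefore coincided on every array and cannot be told apart in any value below. Basal keratins mark the epidermis, and Krt14 and Krt5 gave 9378 to 11764 and 7480 to 8676 in knock-in, against 5905 to 6530 and 5522 to 5821 in wild-type. Krt15, another basal keratin, ran the other way, with 1845 to 2505 in knock-in and 4048 to 6039 in wild-type. Other keratinocyte genes also ran both ways. Itga6 averaged 1847 in knock-in and 872 in wild-type, and Dsg1a 1242 in knock-in and 2607 in wild-type.

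Ifi200 proteins carry a HIN domain that binds DNA, and most also carry a pyrin domain through which they join other proteins. Aim2 senses double-stranded DNA in the cytosol and assembles an inflammasome with the adaptor Pycard and the protease Casp1, whereas p202, the product of Ifi202b, has no pyrin domain and antagonises Aim2. Interferons induce many of these genes, leukocytes are a main site of their expression, and the level of Ifi202b is known to differ between inbred mouse strains, being low in C57BL/6 mice and high in NZB mice.

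Promoter sequences of the cluster are shown because the response elements through which interferons act lie in promoters. RefSeq start sites on GRCm38.p6 gave windows from 250 bases before to 50 after each start for 5 of the 7 member genes (not Ifi204 or Mnda), with 2 windows each for Mndal and Ifi203. Each window was searched on both strands for GAAANNGAAA, the core of the interferon-stimulated response element, and for TTCNNNGAA, the gamma-activated site. No match of one motif overlapped a match of the other in the member windows. Of all 32851 RefSeq windows, 3.44% held GAAANNGAAA and 8.3% held TTCNNNGAA. Among the members GAAANNGAAA was found for 3 genes, Mndal, Ifi203 and Ifi205, and the windows of Ifi202b and Aim2 did not hold its letters. It was also found for 6 of the 7 other cluster genes with a window, among them Ifi207 and Ifi211. The stretches below run 5′ to 3′ on the minus strand, and capitals mark GAAANNGAAA. They lie at chr1:173880200-173880237 for Mndal, chr1:173942504-173942541 for Ifi203, chr1:174031866-174031903 for Ifi205, chr1:173913060-173913097 for Ifi211 and chr1:173741827-173741864 for Ifi207.
Mndal: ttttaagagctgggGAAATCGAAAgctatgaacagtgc
Ifi203: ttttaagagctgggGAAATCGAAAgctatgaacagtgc
Ifi205: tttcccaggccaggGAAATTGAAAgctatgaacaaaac
Ifi211: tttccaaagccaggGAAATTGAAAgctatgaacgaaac
Ifi207: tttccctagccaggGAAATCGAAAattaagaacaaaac

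The motif began 36 bases before the start site in Mndal, 35 in Ifi203, 134 in Ifi205, 37 in Ifi211 and 41 in Ifi207. On the opposite strand it was also found in the second Mndal window, 54 bases before the start, and in Ifi205, 23 bases after it. The Mndal and Ifi203 stretches were identical in all 38 bases, and those of Ifi205 and Ifi211 in 35 of 38. Mndal and Ifi205 were alike in 27 of 38 bases. Ifi205 and Ifi211 are also read together by probe sets of the array, as given below.

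The 250 bases before the start of Ifi202b, at chr1:173982845-173983094 on the minus strand, are printed because this gene had the largest difference of the members. Capitals mark the single TTCNNNGAA match, which began 148 bases before the start. No other member window held that motif.
Ifi202b: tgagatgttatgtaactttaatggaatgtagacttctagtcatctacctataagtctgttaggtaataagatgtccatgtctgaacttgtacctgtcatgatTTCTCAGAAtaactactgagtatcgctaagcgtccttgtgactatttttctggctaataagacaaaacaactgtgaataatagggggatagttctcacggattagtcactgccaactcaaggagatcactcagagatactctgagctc

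Ifi202b was far higher in knock-in skin, while the other members differed by less than 2-fold in the means and in both directions. Ifi202b and the probe sets of Ifi204 and of Ifi205 shared with Ifi211 lay higher, and those of Mndal and Ifi203 lay mostly lower. Of the 12 probe sets, 7 had a difference above 0 and 5 below 0, with a median of 0.15, beside a median of -0.05 over all probe sets. Past the adjusted threshold of 0.05 in the fit across the whole table lay 3 of the 12, all higher in knock-in, where 6.01% of the 45037 non-control probe sets were past it as higher and 7.81% as lower. The higher ones were 43.5% of all those past it, and 66.2% after median centring, which raised every difference by 0.13 and turned the sign of no member. The knock-in values lay wholly above the wild-type values for 5 of the 12 and wholly below for 1, where 13.1% and 19.6% of all probe sets did so, and 32.7% in either direction. Since the members were chosen on this comparison, nothing is read from these counts.

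**Figure D1:**
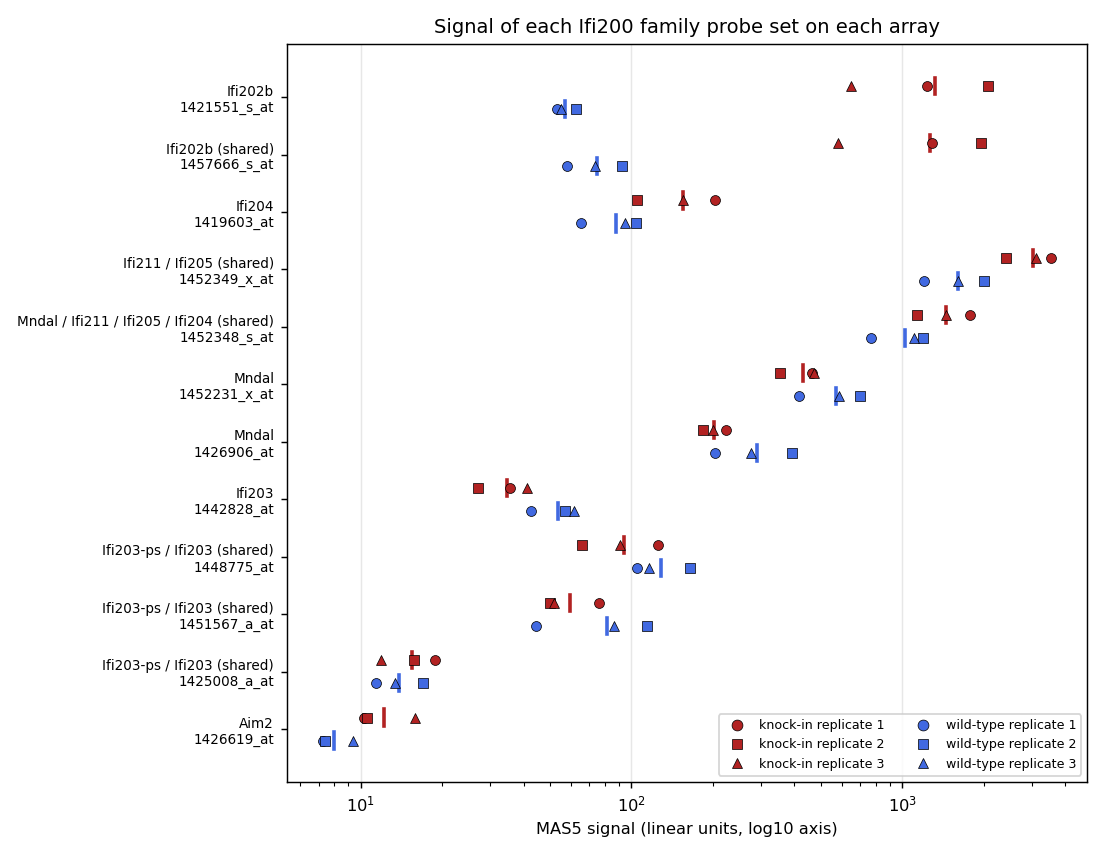
MAS5 signal (log10 axis) of the 12 Ifi200 family probe sets on each array, with knock-in in red above wild-type in blue, symbols for the replicate number and short vertical bars for the group mean. The knock-in values of the first Ifi202b row lie between 644 and 2066 and its wild-type values between 53.2 and 62.4, while the groups of every Mndal row overlap.

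The Ifi202b probe set 1421551_s_at, the only one annotated to this gene alone, gave 1236, 2066 and 644 in the knock-in samples, against 53.2, 62.4 and 55.2 in the wild-type samples. Every knock-in sample was high, and the lowest of them was 10.3 times the highest wild-type sample. The means were 1315 ± 714 in knock-in and 56.9 ± 4.83 in wild-type (SD, n = 3 each), a ratio of 23.1 and a log2 difference of 4.04 ± 0.34. Its difference ranked 32 from the top among 45037 probe sets. In a whole tissue such as skin, a change in the number of cells of a type and a change in the RNA of each cell cannot be told apart.

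The spread within knock-in was itself wide. The highest knock-in sample, replicate 2, had 3.21 times the signal of the lowest, replicate 3, whereas the wild-type samples lay within 1.17 times of each other. Leaving out any 1 array kept the difference between 3.64 and 4.47. With an offset of 64 in place of 16 it was 3.37.

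A second Ifi202b probe set, 1457666_s_at, is shared with the symbol LOC100044068. Its signals were 1284, 1945 and 581 in knock-in, against 57.9, 92.3 and 73.5 in wild-type. The order of the knock-in samples was the same as for the first probe set, with replicate 2 highest and replicate 3 lowest, and the groups did not overlap. The means were 1270 ± 682 in knock-in and 74.5 ± 17.2 in wild-type, a log2 difference of 3.69 ± 0.37.

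Ifi204 encodes p204, a nuclear and cytosolic DNA-binding protein with a pyrin domain. Its own probe set, 1419603_at, gave 203.9, 104.5 and 155 in knock-in, against 64.9, 104.1 and 94.7 in wild-type. Knock-in replicates 1 and 3 were high, and replicate 2 lay only just above wild-type replicate 2, so the groups were separated by almost nothing. The difference was 0.69 ± 0.24, and it ranged from 0.49 to 0.92 when 1 array was left out.

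Ifi205 and Ifi211 are closely similar in sequence and share probe set 1452349_x_at, whose suffix marks probes that can read several transcripts. Its signals were 3542, 2408 and 3129 in knock-in, against 1202, 2010 and 1605 in wild-type. All knock-in samples lay above all wild-type samples, by 1.2 times at the closest point. The means were 3026 ± 574 in knock-in and 1606 ± 404 in wild-type, with a difference of 0.92 ± 0.20.

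Probe set 1452348_s_at is annotated to Mndal, Ifi211, Ifi205 and Ifi204 together. It gave 1780, 1134 and 1450 in knock-in, against 768, 1195 and 1105 in wild-type, with knock-in replicate 2 below wild-type replicate 2. The difference was 0.50 ± 0.20. How much each of the 4 genes adds to this signal cannot be read from the array.

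Mndal, a HIN-200 gene that lies between Ifi203-ps and Ifi211 in the cluster, ran the other way. The probe set 1426906_at gave 224, 183 and 200.1 in knock-in, against 204.2, 390 and 277 in wild-type. Wild-type replicate 1 lay within the knock-in values and the other wild-type samples above them. The difference was -0.45 ± 0.20, ranging from -0.66 to -0.22 with 1 array left out.

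The other Mndal probe set, 1452231_x_at, gave 466, 352 and 472 in knock-in, against 417, 701 and 584 in wild-type, a difference of -0.37 ± 0.19, which ran from -0.57 to -0.20 with 1 array left out. The groups overlapped through the same wild-type sample, replicate 1. Both Mndal probe sets therefore had the same sign and a similar size of difference, opposite in sign to the probe set that Mndal shares with Ifi204, Ifi205 and Ifi211.

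Ifi203 encodes another pyrin and HIN domain protein and was read by 4 probe sets. The one annotated to it alone, 1442828_at, gave 35.5, 27.2 and 41.1 in knock-in, against 42.6, 56.6 and 61.4 in wild-type. It was the only member probe set with every knock-in sample below every wild-type sample, with a difference of -0.46 ± 0.19. The gap between the groups was small, 41.1 in knock-in replicate 3 against 42.6 in wild-type replicate 1.

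The other 3 Ifi203 probe sets also match the pseudogene Ifi203-ps. Probe set 1448775_at gave 125, 65.9 and 90.9 in knock-in, against 105, 165 and 116 in wild-type, a difference of -0.41 ± 0.22. Probe set 1451567_a_at gave 75.6, 50.2 and 51.8 in knock-in, against 44.3, 114 and 85.9 in wild-type, a difference of -0.32 ± 0.28. Both overlapped between the groups, and with 1 array left out they ran from -0.60 to -0.21 and from -0.63 to -0.08. The dimmest, 1425008_a_at, lay between 11.9 and 18.8 in knock-in and between 11.4 and 17.05 in wild-type, and its difference of 0.07 ± 0.16 turned to -0.0028 without knock-in replicate 1.

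Aim2 was at the low end of the scale on every array. Its probe set 1426619_at gave 10.3, 10.6 and 15.9 in knock-in, against 7.28, 7.36 and 9.35 in wild-type. The knock-in samples all lay above the wild-type samples, but all 6 values were under the median signal of their own array, which ranged from 37.7 to 45.8. The difference of 0.23 ± 0.14 depended on the offset, being 0.54 with an offset of 1 and 0.08 with 64. The deposited table holds no detection calls, so whether Aim2 was detected cannot be stated. With the Ifi203 probe set 1425008_a_at, Aim2 was 1 of 2 member probe sets that were not above their array's median on at least 3 arrays, and the other 10 were.

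**Figure D2:**
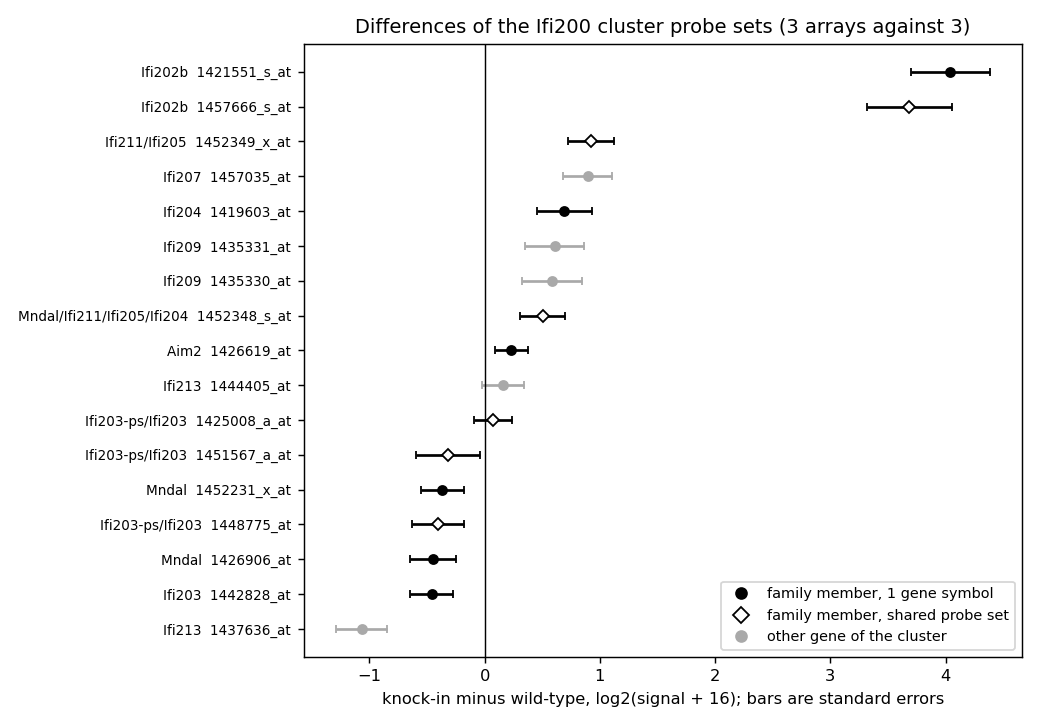
Knock-in minus wild-type difference in log2(signal + 16) for each probe set of the Ifi200 cluster, with bars for 1 standard error (3 arrays against 3). The Ifi202b probe sets sit at 4.04 and 3.69, and the other member probe sets lie between -0.46 and 0.92.

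The rest of the cluster also ran in both directions. Of the 10 other PYHIN gene symbols looked for, 3 had a probe set of their own. One rose and 1 fell in limma's test with Benjamini-Hochberg adjustment over all 45037 probe sets, where 8.48% of the 18193 genes rose and 9.05% fell with 1 probe set a gene. Ifi207 gave 345, 240.2 and 333 in knock-in, against 108, 196 and 175 in wild-type. Its difference was 0.90 ± 0.21 (adjusted p = 0.0271), with every knock-in sample above every wild-type sample. Leaving out knock-in replicate 1, knock-in replicate 3 or wild-type replicate 3 gave adjusted p of 0.0968, 0.102 and 0.0638, and the range over 17 alternatives was 0.00756 to 0.102.

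Ifi213 fell on 1437636_at, with 24.5, 8.49 and 18.0 in knock-in against 42.6, 55.9 and 57.1 in wild-type. Its difference was -1.06 ± 0.22 (limma, adjusted p = 0.0160), and all knock-in samples were below all wild-type samples. Its second probe set, 1444405_at, was near the floor of the scale at 5.36 to 9.58 in knock-in and 0.399 to 9.999 in wild-type, with a difference of 0.16 ± 0.18. Adjusted p was 0.110 for the mean of both, and 0.0512, 0.0515 and 0.0679 without knock-in replicate 3, wild-type replicate 2 and wild-type replicate 3, within a range of 0.00592 to 0.110 over 16 alternatives. Ifi209, with a difference of 0.58 ± 0.26 (adjusted p = 0.193), overlapped between the groups, and knock-in replicate 2 was again its lowest knock-in sample at 82.9.

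Along chromosome 1 the cluster runs from Aim2 to Ifi205, with Ifi202b next to last, between Ifi203 and Ifi205. Ifi203 and Ifi202b are thus adjacent in the RefSeq order and stood at -0.46 and 4.04. Outside the cluster, of the 20 nearest measured genes on each side, 4 rose and 8 fell, together 30% of 40, where 17.5% of all genes were past the threshold. The count was 7 without knock-in replicate 3 or wild-type replicate 3.

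On the Aim2 side, the nearest gene, Cadm3, stood at -0.46 ± 0.17 (limma, adjusted p = 0.124). Next came Ackr1, the atypical chemokine receptor of venules, which rose by 0.80 ± 0.15 (adjusted p = 0.0105), and Fcer1a, the alpha chain of the IgE receptor of mast cells and basophils, which averaged 466 ± 26.5 in knock-in and 42.9 ± 11.4 in wild-type (adjusted p = 1.85e-05). The fourth, Olfr16, stood at -0.10 ± 0.26. On the Ifi205 side, Mptx1, Fmn2 and Rgs7 stood at 0.21, -0.19 and 0.04 and did not pass the test, and Fh1, a fumarate hydratase, fell by 0.48 (adjusted p = 0.00561). On the log2(signal + 16) scale, the neighbours that passed by at least 2-fold were Fcer1a, the muscle calcium store protein Casq1 at -2.54 ± 0.25 and Vsig8 at -1.78 ± 0.29. Slamf8, Slamf9, Kmo and 2310043L19Rik also fell, with knock-in to wild-type ratios of the means of 0.252, 0.486, 0.395 and 0.259, and each passed in only 1 or 2 of the 6 fits that left out an array.

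**Figure D3:**
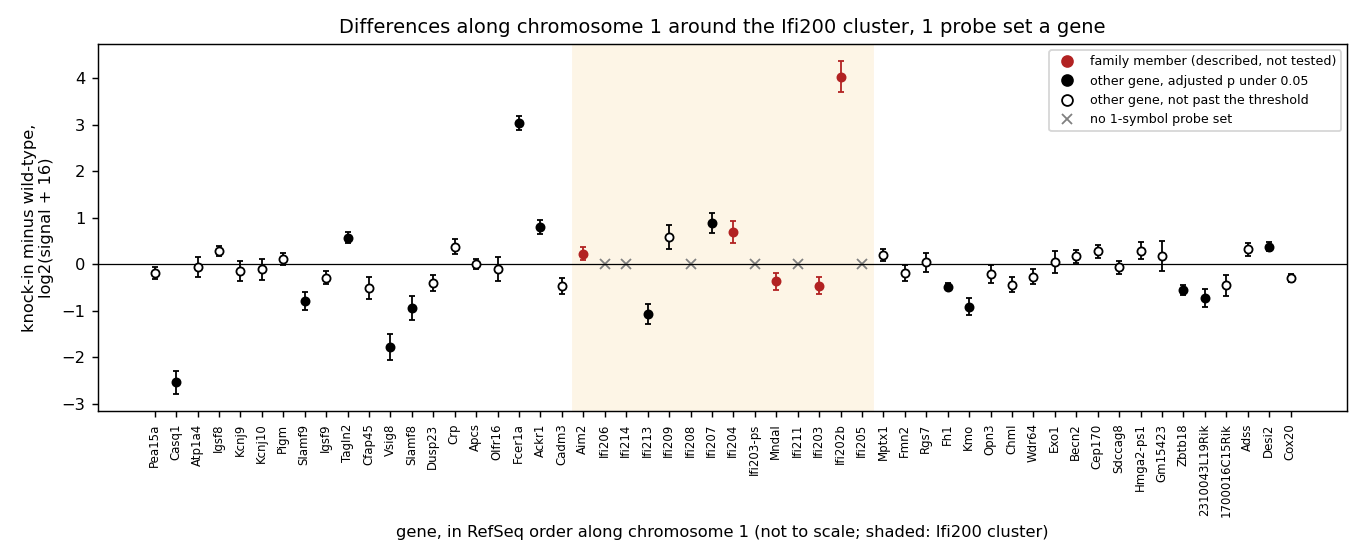
Differences in log2(signal + 16) for 1 probe set a gene in the order of the genes on chromosome 1, spaced evenly, with bars for 1 standard error and the Ifi200 cluster shaded. Ifi202b stands at 4.04 beside Ifi203 at -0.46, and past the right edge of the cluster Mptx1, Fmn2, Rgs7 and Fh1 lie between -0.48 and 0.21.

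The arrays did not keep 1 order across the family. Wild-type replicate 1 was the lowest wild-type sample at 12 of the 12 member probe sets, and replicate 2 was the highest at 10. Over all probe sets, wild-type replicate 1 was lowest in 40.6% and replicate 2 highest in 33.9%. Knock-in replicate 2 was the lowest knock-in sample at 8 of the 12, against 35.8% of all probe sets. Several of the 12 share sequence, so they are not separate observations. Ifi202b broke the knock-in order, since knock-in replicate 2 was its highest sample and replicate 3 its lowest, but it kept the wild-type order. The dim probe sets of Aim2, lowest in knock-in replicate 1, and 1425008_a_at of Ifi203, lowest in replicate 3, broke the knock-in order too.

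Macrophage markers shared the lowest array of each group with most other members, and neutrophil markers shared the lowest knock-in array only. The highest knock-in array was replicate 1 for 7 of the 12 member probe sets, against 36.8% of all probe sets. These were 5 of the 6 shared probe sets but 2 of the 6 with 1 symbol, of which 3 were highest in replicate 3. Replicate 3 was also highest for 14 of 17 macrophage markers. Neutrophil markers were highest in knock-in replicate 3 for 6 of 12 and in replicate 1 for 5. Knock-in replicate 2 was the lowest knock-in sample for 15 of 17 monocyte and macrophage markers and 10 of 12 neutrophil markers, and wild-type replicate 1 was the lowest wild-type sample for 15 of the 17 macrophage markers but 4 of the 12 neutrophil markers. Antiviral interferon-stimulated genes most often shared both lowest arrays too, knock-in replicate 2 for 25 of 39 and wild-type replicate 1 for 22 of 39. They were highest in wild-type replicate 2 for 27 of 39. The summed dendritic and Langerhans cell markers were highest in knock-in replicate 2, at 4638. Cd24a and Epcam gave 3206 and 1184 of this, so the sum mainly carries their order. Cd207 and Siglech gave 21.3 and 7.26 there. Of the macrophage markers 7 rose and 0 fell, with a median difference of 0.59 beside -0.02 over all genes, and 4 passed without knock-in replicate 1 or wild-type replicate 3. Their summed signal ran from 17740 to 27434 in knock-in and from 9923 to 14539 in wild-type. Cd163, a macrophage scavenger receptor, gave 2709, 1869 and 2823 in knock-in, against 225, 504 and 406 in wild-type, and Itgam, the CD11b integrin chain, gave 441, 131 and 357 in knock-in, against 35.0, 51.2 and 54.6 in wild-type. Cd14 and C1qa rose too, by 4.20 and 1.07. Of the 10 that did not pass, Adgre1, Csf1r and Ms4a7 differed little, by 0.14, 0.07 and 0.04. Cx3cr1 and Ccr2 lay lower, at -0.47 and -0.36, and the rest lay higher. Of the macrophage markers, Marco, with signals of 0.9 to 7.4 in wild-type, was the one with signals near 0.

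Of 12 neutrophil markers, 9 rose and 0 fell, with a summed signal of 16391 to 20474 in knock-in and 747 to 999.8 in wild-type. Most of the knock-in sum came from S100a8 and S100a9, which averaged 9374 and 6055 there. The granule genes Mpo, Ltf and Elane, at 0.63, 0.19 and -0.0042, did not pass. S100a9, S100a8, Mmp8 and Stfa2l1 rose by 5.72, 4.26, 4.55 and 3.78, and Cxcr2, a chemokine receptor of neutrophils, averaged 76.2 in knock-in and 2.85 in wild-type. Of 13 T, NK and B cell markers, 0 rose and 4 fell, namely Cd3g, Cd3d, Nkg7 and Jchain, and the summed signal was 182 to 272 in knock-in and 367 to 494 in wild-type. Without knock-in replicate 1 or 2, or wild-type replicate 2 or 3, 2 of them passed. Dendritic and Langerhans cell markers gave 1 rise and 4 falls of 11 (Cd24a rose, and Cd207, Cd209a, Siglech and Epcam fell), and 3 passed without knock-in replicate 1 or wild-type replicate 3. Keratinocyte markers gave 3 rises (Krt14, Krt5 and Itga6) and 3 falls (Krt15, Dsg1a and Ivl) of 14. Endothelial markers gave 9 and 0 of 12, and fibroblast markers 4 and 2 of 12, of which 3 passed without knock-in replicate 3 or wild-type replicate 3. The part of these cell type markers in the values of the Ifi200 genes was not tested.

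**Figure D4:**
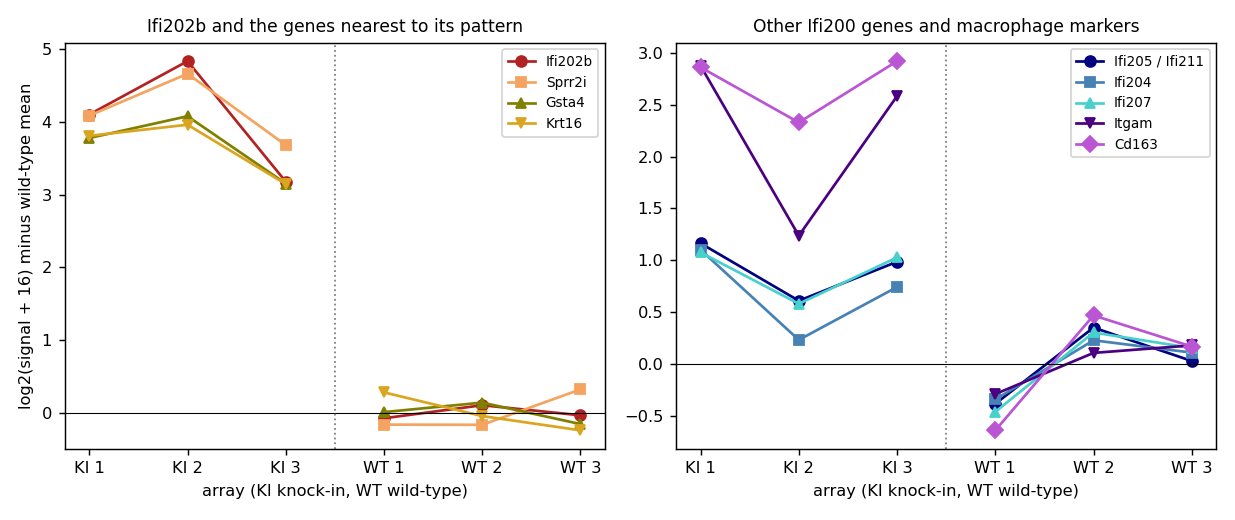
Value of log2(signal + 16) minus the wild-type mean on each array, with lines that only link the points of 1 gene. On the left Ifi202b, Sprr2i, Gsta4 and Krt16 peak at knock-in replicate 2. The last 3 were picked as the genes nearest to the Ifi202b values, so their shared peak is no separate result. On the right Ifi204, Ifi207, the Ifi205 and Ifi211 probe set and the macrophage markers Itgam and Cd163 are lowest among knock-in samples at replicate 2.

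The genes whose 6 values lay nearest to those of Ifi202b, by Euclidean distance after subtracting the wild-type mean, were Sprr2i, Gsta4, Krt16, Slpi, Ptgs2 and Mmp10. Their distances ran from 0.70 to 1.22 on the log2 scale. Gsta4, a glutathione transferase, gave 982, 1213 and 631 in knock-in, against 57.2, 64.2 and 49.3 in wild-type. Krt16, a keratin of stressed epidermis, gave 5875, 6534 and 3704 in knock-in, against 495, 392 and 340 in wild-type. In Sprr2i, a cornified envelope precursor, knock-in replicate 2 was also highest and replicate 3 lowest, with a difference of 4.15 ± 0.26. Slpi, a protease inhibitor, and Ptgs2, the inducible cyclooxygenase, were highest in knock-in replicate 1. This list ranks likeness over 6 arrays in 2 groups, and the 6 genes had differences of 3.40 to 4.15, close in size to that of Ifi202b.

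Genes of inflammasomes in general, which include sensors other than Aim2 and their partners, were measured next. Of 17, 7 rose and 0 fell, with a median of 0.53. Il1b, the cytokine cut by Casp1, averaged 1161 ± 130 in knock-in and 49.0 ± 3.75 in wild-type, a difference of 4.17 ± 0.11 (limma, adjusted p = 7.83e-07). Nlrp3, another inflammasome sensor, averaged 111 ± 24.7 in knock-in and 16.3 ± 3.63 in wild-type, and Ninj1, which ruptures the membrane of dying cells, rose by 1.14 ± 0.14. Pycard, the adaptor of Aim2, averaged 1691 ± 29.4 in knock-in and 1171 ± 52.9 in wild-type (adjusted p = 0.00384), but with the mean over all its probe sets the difference was 0.05 (adjusted p = 0.772, the highest of 17 alternatives, with 0.00176 the lowest). Casp1 averaged 269 ± 11.7 in knock-in and 272 ± 15.5 in wild-type, and Il18 stood at 0.04 ± 0.13. The count was 4 without knock-in replicate 1 or 3, or wild-type replicate 1 or 3, and 12 after median centring.

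Genes of the pathway for DNA in the cytosol, in which cGAS signals through Sting1 and Tbk1, mostly did not pass the test. Of 26 measured, 2 rose and 0 fell, with a median of 0.04. Samhd1, which removes deoxynucleotides, gave 577, 469 and 611 in knock-in, against 212, 265 and 273 in wild-type, a difference of 1.09 ± 0.13 (limma, adjusted p = 0.00155), and with the mean over its probe sets the adjusted p was 0.142, the highest of 17 alternatives, with 0.000325 the lowest. Tbk1 stood at 0.34 ± 0.09 (adjusted p = 0.0469) and passed under 5 of 16 alternatives, over which its adjusted p ran from 0.0156 to 0.152, and with any 1 array left out it did not pass. Sting1, at 137 ± 36.6 in knock-in and 83.2 ± 16.9 in wild-type, and the lysosomal nuclease Dnase2a, at -0.40 ± 0.12, did not pass (adjusted p of 0.0956 and 0.0726).

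The interferon genes themselves gave 0 rises and 1 fall of 9. That gene was Ifna1, at 2.26 ± 0.239 in knock-in and 19.2 ± 5.03 in wild-type, both near or under the offset, and Ifnb1 and Ifng averaged 5.56 and 1.94 in knock-in and 9.57 and 1.11 in wild-type. Interferon receptors and their signal chain gave 2 rises and 1 fall of 20. Socs3, a feedback inhibitor of cytokine receptors, rose by 2.42 ± 0.14, and Ifnar2, a chain of the type I interferon receptor, averaged 504 ± 85.9 in knock-in and 265 ± 40.0 in wild-type (limma, adjusted p = 0.00642). Usp18, an interferon-induced brake on that receptor, was 66.2 ± 2.52 in knock-in and 129 ± 33.1 in wild-type (adjusted p = 0.0231), and it passed in 1 of the 6 fits that left out an array, over a range of 0.00606 to 0.0929 in 16 alternatives.

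The antiviral genes that interferons induce together with the Ifi200 family did not move as 1 group. Of 39 measured, 6 rose and 1 fell, with a median of 0.03. Xaf1, a pro-apoptotic interferon target, averaged 262 in knock-in and 15.3 in wild-type (limma, adjusted p = 4.53e-05). Its difference of 3.15 on this probe set ran from 0.87 to 4.05 over 17 alternatives, which include the mean over its probe sets. The adjusted p was at most 0.00428. The membrane proteins Ifitm1 and Ifitm2, which restrict virus entry, rose by 2.37 and 0.83. Trim25, a ubiquitin ligase of the RIG-I pathway, rose by 0.79, and Ddx60, a helicase, was the gene that fell, by 1.03. Common reporters of the interferon response did not pass. Ifit1 averaged 39.3 in knock-in and 42.1 in wild-type (adjusted p = 0.882), Mx1 22.0 in knock-in and 39.6 in wild-type (adjusted p = 0.183) and Rsad2 105 in knock-in and 60.8 in wild-type (adjusted p = 0.171).

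Interferon-gamma-responsive genes gave 0 rises and 3 falls of 23, with a median of -0.22. Ciita, the switch for MHC class II genes, averaged 11.5 ± 3.82 in knock-in and 46.8 ± 11.3 in wild-type, and the immunoproteasome subunit Psmb9 averaged 161 ± 35.6 in knock-in and 297 ± 18.1 in wild-type (limma, adjusted p of 0.00696 and 0.00737). Gbp3, a guanylate-binding GTPase, stood at -0.62 ± 0.16 (adjusted p = 0.0379), with a range of 0.0161 to 0.119 over 15 alternatives. Gbp6 stood at -0.57 ± 0.19 (adjusted p = 0.0823). Without wild-type replicate 1 the count of falls was 6.

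**Figure D5:**
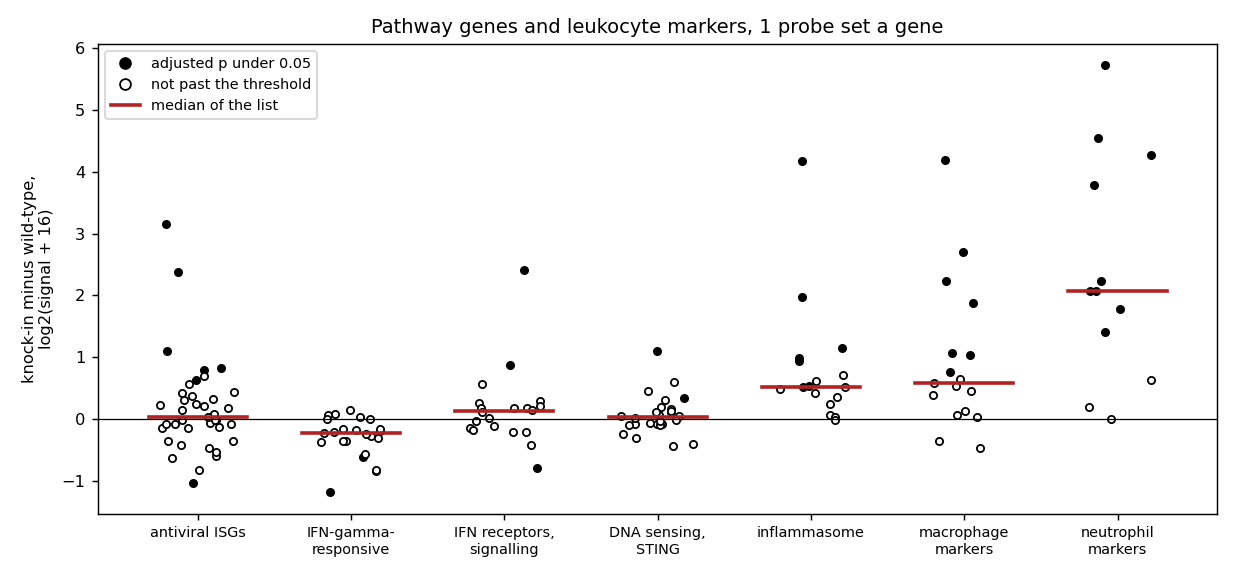
Differences in log2(signal + 16) of single genes in 7 lists, filled where the adjusted p was under 0.05, with a red bar at each list's median (sideways position has no meaning). The medians were 0.03 for antiviral genes and -0.22 for interferon-gamma-responsive genes, against 0.53, 0.59 and 2.07 for inflammasome genes, macrophage markers and neutrophil markers.

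Proteins reported to bind p202 or p204 include the retinoblastoma protein, p53-binding protein, Id proteins and Fos. Of 13 of their genes measured, 1 rose and 2 fell, with a median of -0.01. Fos averaged 1195 ± 175 in knock-in and 284 ± 42.7 in wild-type, and Trp53bp1 averaged 244 ± 14.2 in knock-in and 389 ± 17.01 in wild-type (limma, adjusted p of 0.000112 and 0.00312). Id3 stood at -0.49 ± 0.11 (adjusted p = 0.0225, with a range of 0.0120 to 0.108 over 17 alternatives), and Rb1 at -0.41 ± 0.12 did not pass (adjusted p = 0.0525).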

How the data were processed

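The authors deposited a linear signal intensity for each probe set on 6 arrays, made with MAS5 per the submitters' processing notes, which give no version or settings. MAS5 corrects for background with mismatch probes and multiplies an array by a single factor. The 2% trimmed mean of every deposited array was 150, so no further normalization was applied. The table's 64 control probe sets were left out. Symbols came from the platform annotation, in which 34945 probe sets had 1 symbol, 932 several and 9160 none, and by gene ID 34741 matched the RefSeq gene table of GRCm38.p6. Arrays correlated with an r of 0.983 to 0.984 within knock-in, 0.981 to 0.984 within wild-type and 0.949 to 0.963 between groups.

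The log2(signal + 16) values were fitted by limma 3.58.1 under R 4.3.3 (lmFit, eBayes with a mean-variance trend, two-sided, no replicate block) over all 45037 non-control probe sets with no filter on dim ones, so that no member entered through the group in which it was high. Adjustment was by Benjamini-Hochberg over that table, with a threshold of 0.05. For a gene with several 1-symbol probe sets, that with the highest mean of 6 arrays represents it in lists, and 35 list genes without such a probe set were not analysed here. The procedure was tested on simulated data. The median standard error of a difference was 0.17, and the number of arrays limits the precision.

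The members and the gene lists were chosen with earlier results of these data known. Named were every member probe set, up to 4 genes of each list with the smallest p, the 4 neighbours nearest on each side and those past 2-fold, and the 6 genes nearest to Ifi202b in pattern. No gene of the endothelial and fibroblast lists was named. Casp1, Il18, Ddx60, Ifit1, Mx1, Rsad2, Cxcr2, Marco, Ifng, Epcam, Krt5, Ivl, Slamf8, Slamf9, Kmo and 2310043L19Rik were named outside that rule after their values were seen. So were Adgre1, Csf1r, Ms4a7, Cx3cr1, Ccr2, Mpo, Ltf and Elane. Alternatives were offsets of 1 and 64, 2 filters on dim probe sets (above the array median, or a signal of 100, on 3 arrays), quantile normalization, median centring, no trend, array weights, the mean over a gene's probe sets, no _s_at, _x_at and _a_at probe sets, a replicate block, and each array left out in turn.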

Additional observations from a re-analysis of the deposited data

How the results depend on the processing

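Past the threshold lay 6224 probe sets, 3169 to 5139 with 1 array left out, 3046 genes with the mean over probe sets, and 3406 with the replicate number as a block. Same-numbered samples of the 2 groups correlated at -0.13, -0.15 and -0.01 in their deviations from the group means, so the numbers were not taken to pair the samples. Median centring raised all differences by 0.13 and turned the share of higher calls from 43.5% to 66.2%, yet no member probe set changed sign under any scaling. The Ifi202b difference was 3.37 with an offset of 64. The dim Ifi203 probe set 1425008_a_at ran from -0.0028, without knock-in replicate 1, to 0.16 with 1 array left out. The cause was not tested for any of these.

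Counts of genes past the threshold moved as follows. Other PYHIN genes (2) gave 1 with the signal filter, the mean over probe sets and the replicate block, and 0 to 3 with 1 array left out. Inflammasome genes (7) gave 12 with median centring, 4 without multi-transcript probe sets and with the replicate block, and 4 to 9 leaving out 1 array. DNA sensing genes (2) gave 4 with the array median filter, 1 with quantile normalization, no trend, array weights, the replicate block or no multi-transcript probe sets, and 1 to 2 leaving out 1 array. Interferon genes (1) gave 0 with the array median filter or without multi-transcript probe sets. Interferon-gamma-responsive genes (3) gave 1 with the signal filter or without multi-transcript probe sets, and 2 to 6 leaving out 1 array. Genes of p202 and p204 partners (3) gave 5 with either filter and with quantile normalization. Macrophage markers (7) gave 11 with median centring and 4 to 10 leaving out 1 array. Dendritic markers (5) gave 3 with the signal filter or without multi-transcript probe sets, 2 with the replicate block and 3 to 5 leaving out 1 array. Lymphocyte markers (4) gave 2 with the array median filter and 2 to 5 leaving out 1 array, fibroblast markers (6) gave 3 with the replicate block and 3 to 6, and chromosome 1 neighbours (12) gave 7 to 12. The total fell by over 1.5 times without knock-in replicate 1, knock-in replicate 3 or wild-type replicate 3. For the main results and all settings taken pairwise, 57 values moved, 0 reversed and 263 stayed within their limit. For the other results, 3 moved, 1 reversed and 165 stayed.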
